A study of Mus musculus with 42 samples.

Results

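The 10 genes described here encode steps of androgen and oestrogen synthesis and 2 hallmarks of Leydig cells, the steroid-producing cells between the seminiferous tubules. They are *Star*, *Cyp11a1*, *Hsd3b1*, *Hsd3b6*, *Cyp17a1*, *Hsd17b3*, *Hsd17b1*, *Cyp19a1*, *Lhcgr* and *Insl3*. They were chosen by name, and are 10 of 27179 genes counted in 12 RNA-seq libraries of sorted mouse spermatogonia. A gene list for Leydig cells bears on these libraries because Leydig cells carry the c-Kit receptor, the surface protein by which differentiating spermatogonia were sorted.

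Steroid synthesis begins when STAR moves cholesterol to the inner mitochondrial membrane, where the side-chain cleavage enzyme CYP11A1 turns it into pregnenolone. The 3β-hydroxysteroid dehydrogenases HSD3B1 and HSD3B6 oxidise pregnenolone and related steroids, CYP17A1 makes androstenedione, and HSD17B3 reduces that to testosterone. HSD17B1 makes oestradiol and in rodents also acts on androgens, CYP19A1 (aromatase) converts androgens to oestrogens, LHCGR is the receptor through which luteinizing hormone drives the pathway, and INSL3 is a peptide hormone of Leydig cells needed for testis descent. In the fetal mouse testis the step made by HSD17B3 is known to take place in Sertoli cells, the supporting cells inside the tubules, rather than in fetal Leydig cells.

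All mice were C57BL/6J males at 10 days post-partum (dpp) that carried *Ddx4-Cre*, a recombinase driven by a germ cell promoter. Controls were *Ddx4-Cre*; *Chd8* +/F and mutants *Ddx4-Cre*; *Chd8* F/-, so that the controls also carried the Cre and a floxed allele of *Chd8*, which encodes a chromatin remodeler. Per the study's methods, testes were treated with collagenase to take away interstitial cells, a strainer was used against Sertoli cells and a plating step against other somatic cells. From the rest, c-Kit+ cells were taken by magnetic beads, and Thy1+ cells, enriched for undifferentiated spermatogonia, came from what had not bound. Each of the 4 groups (Thy1+ control, Thy1+ mutant, c-Kit+ control, c-Kit+ mutant) had 3 libraries. The methods give 3 pups per analysis without saying whether a library pooled them, so p-values measure the spread between these libraries. Because the Cre is driven by a germ cell promoter, the floxed allele was meant to be deleted in germ cells. By genotype, the other allele was deleted (-) in mutants and wild-type (+) in controls, in the cells that make steroids too. Whether that difference changed the steroid genes was not tested.

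Library totals ranged from 32266861 to 45396233 counted reads, and a level is given in CPM, the gene's share of a library's reads after scaling of all 12 libraries by the trimmed mean of M-values. Counts of *Chd8* over the whole gene ran from 258 to 315 CPM in the 12 libraries and did not separate the genotypes. The 37 exons counted for it include many outside the floxed part, so this count does not check the deletion. *Kit* ran from 171 to 432 CPM in Thy1+ libraries and from 626 to 781 CPM in c-Kit+ libraries, and *Thy1* from 11.7 to 17.1 CPM and from 0.436 to 1.07 CPM, so the sorted populations differed as labelled. Markers of somatic cells were counted in every library. The 7 stromal markers summed to 9040 to 15940 CPM in libraries of Thy1+ cells, against 1474 to 3381 CPM in those of c-Kit+ cells. In bulk libraries such as these, fewer cells of a type and less RNA per cell cannot be told apart.

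**Figure D1:**
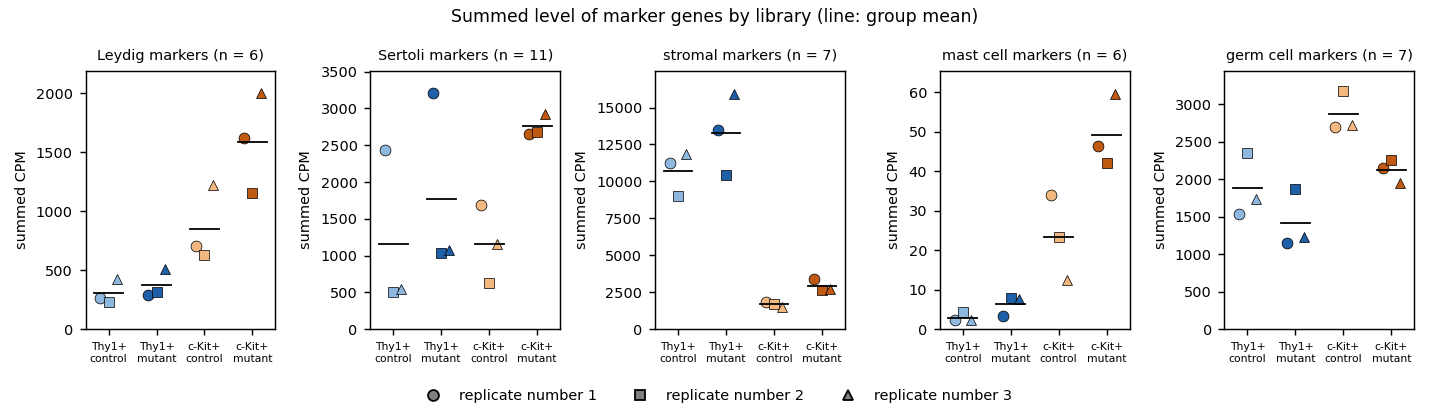
Summed CPM (y axis) of marker genes of 5 cell types in the 12 libraries (x axis: group; symbol: replicate number; line: mean of 3 libraries). Leydig markers, all 6 of which are among the genes described here, were highest in c-Kit+ mutant libraries (1155 to 1997 CPM) and within every group in replicate 3, whereas Sertoli markers were highest in replicate 1 of Thy1+ control, Thy1+ mutant and c-Kit+ control cells.

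The genes lie on 7 chromosomes of mm10 (GRCm38), and each was counted over its RefSeq exons. *Star* (gene ID 20845) spans chromosome 8 from 25808513 to 25815982, *Cyp11a1* (13070) chromosome 9 from 58015017 to 58027023 and *Cyp17a1* (13074) chromosome 19 from 46667165 to 46673000. *Hsd3b1* (15492, chromosome 3, 98852197 to 98859794) and *Hsd3b6* (15497, chromosome 3, 98805504 to 98814443) lie near each other in a cluster of related genes. *Hsd17b1* (15485) spans chromosome 11 from 101078411 to 101080505, *Hsd17b3* (15487) chromosome 13 from 64058274 to 64089201, and *Cyp19a1* (13075) chromosome 9 from 54165937 to 54193442. *Lhcgr* (16867) spans chromosome 17 from 88741549 to 88791976 and *Insl3* (16336) chromosome 8 from 71689252 to 71690577.

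Counting limits touch 3 of these genes. Of the 587 exonic bases of *Insl3*, 406 (69.2%) are also exonic in *Jak3* on the same strand, and reads that overlap both genes are left out by the counter's default, so the *Insl3* count comes from the remaining 181 bases. *Jak3*, which encodes a signalling kinase of blood cells, had 5.12 to 6.68 CPM in control and 9.83 to 14.6 CPM in mutant c-Kit+ libraries. For *Hsd3b6*, 14.9% of the exonic stretches of 50 bases occur also in another *Hsd3b* gene, against 1.80% for *Hsd3b1*, and reads that map to several places are likewise left out. *Hsd3b4* and *Hsd3b5* had 0 reads in all 12 libraries, and *Hsd3b2* and *Hsd3b3* at most 2 and 5 reads, so the *Hsd3b* reads counted here were those of *Hsd3b1*, *Hsd3b6* and the bile acid enzyme gene *Hsd3b7*.

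RefSeq promoter windows (build GRCm38.p6) were at hand for 7 of the 10 genes. In the 250 bases before the start, 5 motifs were searched on both strands: CAAGGNCA, the letters bound by the steroidogenic factor NR5A1, the shorter nuclear receptor letters AGGTCA, which overlap it where N is T, GATAA, read by the GATA family, TGACG, read by the CREB family, and TATAAA, the box that sets many start sites. Of these, AGGTCA occurred in 2 of the 7 (14.0% of all 32851 windows), GATAA in 2 of 7 (22.6%), TATAAA in 1 of 7 (12.4%), CAAGGNCA in 0 of 7 (5.53%) and TGACG in 0 of 7 (17.8%). The windows of 4 genes whose levels varied together and which hold one of these matches are shown 5′ to 3′ along the gene's strand with the match in capitals. Distances are from the start in the RefSeq promoter table, which lies 65 bases before the counted start of *Cyp11a1* and 38 before that of *Lhcgr*, and is the counted start of *Hsd3b1* and *Hsd3b6*. AGGTCA began 28 bases before the start of *Cyp11a1* (chr9:58014702-58014951, plus strand) and 122 bases before that of *Lhcgr* (chr17:88792015-88792264, minus strand). GATAA lay on the opposite strand, 134 bases before the start of *Hsd3b1* (chr3:98859795-98860044, minus strand), and on the gene's strand 30 bases before that of *Hsd3b6* (chr3:98814444-98814693, minus strand). A match of letters is a description and not evidence of binding.
Cyp11a1: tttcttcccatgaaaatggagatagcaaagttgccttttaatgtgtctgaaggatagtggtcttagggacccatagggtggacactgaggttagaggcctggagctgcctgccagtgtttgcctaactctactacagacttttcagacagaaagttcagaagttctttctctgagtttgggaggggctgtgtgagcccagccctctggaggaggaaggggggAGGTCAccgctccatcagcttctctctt
Lhcgr: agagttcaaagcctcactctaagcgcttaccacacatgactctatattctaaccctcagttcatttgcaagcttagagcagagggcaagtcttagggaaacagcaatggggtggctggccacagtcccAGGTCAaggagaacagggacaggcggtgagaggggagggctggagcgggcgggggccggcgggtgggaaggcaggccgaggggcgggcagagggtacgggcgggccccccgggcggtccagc
Hsd3b1: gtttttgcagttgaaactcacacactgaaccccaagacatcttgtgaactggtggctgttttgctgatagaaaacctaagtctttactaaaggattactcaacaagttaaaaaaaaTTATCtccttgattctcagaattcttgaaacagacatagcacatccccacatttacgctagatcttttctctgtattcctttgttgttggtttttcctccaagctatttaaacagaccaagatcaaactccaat
Hsd3b6: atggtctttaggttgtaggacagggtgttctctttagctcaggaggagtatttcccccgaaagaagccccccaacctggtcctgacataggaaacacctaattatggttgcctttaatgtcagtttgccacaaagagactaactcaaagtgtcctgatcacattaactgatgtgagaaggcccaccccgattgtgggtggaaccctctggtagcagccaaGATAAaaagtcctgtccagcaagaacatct

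Of the 10 genes, 9 were expressed at levels that passed the filter on low counts in every comparison, and *Cyp19a1* was not. *Cyp19a1* had 0 to 12 reads per library, at most 0.295 CPM, and was not tested. Levels of different genes are compared here per kilobase of exon (RPKM), with *Insl3* per kilobase of its own 181 bases. Reads that reach from these into the bases shared with *Jak3* are left out too. The usable length of *Insl3* is therefore shorter by an unknown amount, and its place in the order is uncertain. In c-Kit+ control libraries the order was *Cyp17a1* (156 ± 87.0 RPKM, SD, n = 3), *Insl3* (136 ± 45.9), *Hsd3b1* (131 ± 26.3) and *Cyp11a1* (92.7 ± 19.6), whose neighbours overlapped between libraries. Below them came *Star* (22.3 ± 16.9 RPKM), which did not overlap *Cyp11a1*, then *Lhcgr* (16.5 ± 1.43), *Hsd3b6* (11.4 ± 4.62), *Hsd17b3* (5.52 ± 2.28) and *Hsd17b1* (1.56 ± 0.569). The same 4 genes led and *Star* came next in each of the other groups. The lead of *Cyp11a1* over *Star* held without overlap in all 4 groups, whereas *Star* and *Lhcgr* overlapped in all 4.

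In c-Kit+ cells, 6 of the 9 tested genes were up-regulated in mutants: *Hsd17b1* (3.72-fold), *Hsd17b3* (2.66-fold), *Hsd3b1* (2.12-fold), *Lhcgr* (2.03-fold), *Cyp11a1* (1.82-fold) and *Insl3* (1.72-fold), and none was down-regulated. A gene was called where the false discovery rate (FDR) of edgeR's quasi-likelihood test over 17134 genes was under 0.05 and the log2 fold change over 0.5 in size. By the same rule 14.8% of all tested genes were called higher and 7.41% lower. The median log2 fold change of the 9 was 0.86, against 0.01 for all tested genes, and it ranged from 0.53 for *Hsd3b6* to 1.89 for *Hsd17b1*. This comparison sets c-Kit+ cells of F/- mice against those of +/F mice. It does not separate loss of *Chd8* in germ cells from the deleted allele that other cells of the mutants carried.

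The first enzyme, *Cyp11a1*, had 147, 142 and 204 CPM in c-Kit+ control replicates 1 to 3 and 337, 234 and 363 CPM in mutants. Every mutant library was above every control library, with a log2 fold change of 0.86 ± 0.17 (SE) and an edgeR FDR of 0.00310. *Hsd3b1* had 221, 210 and 299 CPM in controls and 577, 426 and 611 CPM in mutants, again without overlap (1.09 ± 0.15, FDR 0.000594). The hormone receptor *Lhcgr* had 38.8, 41.6 and 46.0 CPM against 106, 73.3 and 87.4 CPM. Its log2 fold change of 1.02 ± 0.13 had the lowest FDR of the set, 0.000352. *Insl3* rose from 25.0, 16.2 and 32.8 CPM to 45.5, 34.7 and 52.8 CPM, where the lowest mutant library was just above the highest control (0.79 ± 0.23, FDR 0.0195). That call was lost without mutant replicate 1 (FDR 0.0572) or mutant replicate 3 (FDR 0.0843) and when all 12 libraries shared 1 fit (FDR 0.0812), and the overlapping *Jak3* rose as well (0.93 ± 0.18, FDR 0.00237).

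*Star*, *Cyp17a1* and *Hsd3b6* were not called in the unpaired fit, and their control library of replicate 3 lay within the mutant range. *Star*, the cholesterol carrier, had 61.6, 39.8 and 166 CPM in controls and 124, 73.6 and 230 CPM in mutants (log2 fold change 0.62 ± 0.49, FDR 0.354). *Cyp17a1* had 216, 176 and 471 CPM against 425, 314 and 653 CPM (0.63 ± 0.34, FDR 0.175). *Hsd3b6* had 14.4, 17.1 and 29.9 CPM against 35.1, 21.0 and 36.1 CPM (0.53 ± 0.27, FDR 0.151). In each of these genes the mutant library was above the control library of the same number in 3 of 3 pairs. How many of all genes did the same was not counted. For *Star* the log2 differences by number were 1.01, 0.89 and 0.47, and for *Cyp17a1* 0.98, 0.83 and 0.47.

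C-Kit+ libraries with the same replicate number deviated together only weakly over all genes, with r of 0.10 to 0.13 against a limit of 0.1. A fit with that number as a block called all 9 tested genes higher (15.8% of all genes were called higher in it). In it *Star* rose by 0.73 ± 0.10 (FDR 0.000401), *Cyp17a1* by 0.70 ± 0.09 (FDR 0.000232) and *Hsd3b6* by 0.55 ± 0.18 (FDR 0.0334). The SE of *Star* fell from 0.49 to 0.10 and that of *Cyp17a1* from 0.34 to 0.09 while their fold changes moved little. Over the 6 unpaired fits that each left out 1 library, 5 to 9 of the 9 were called, all 9 of them only without control replicate 3, where 13.6% of all genes were called higher. In these 6 fits the log2 fold change of *Star* ran from 0.085 to 1.44, that of *Cyp17a1* from 0.30 to 1.19 and that of *Hsd3b6* from 0.32 to 0.91. With replicate number 3 left out of both groups, an alternative added after the data were seen, *Cyp17a1* joined the called genes (0.86, FDR 0.0218).

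**Figure D2:**
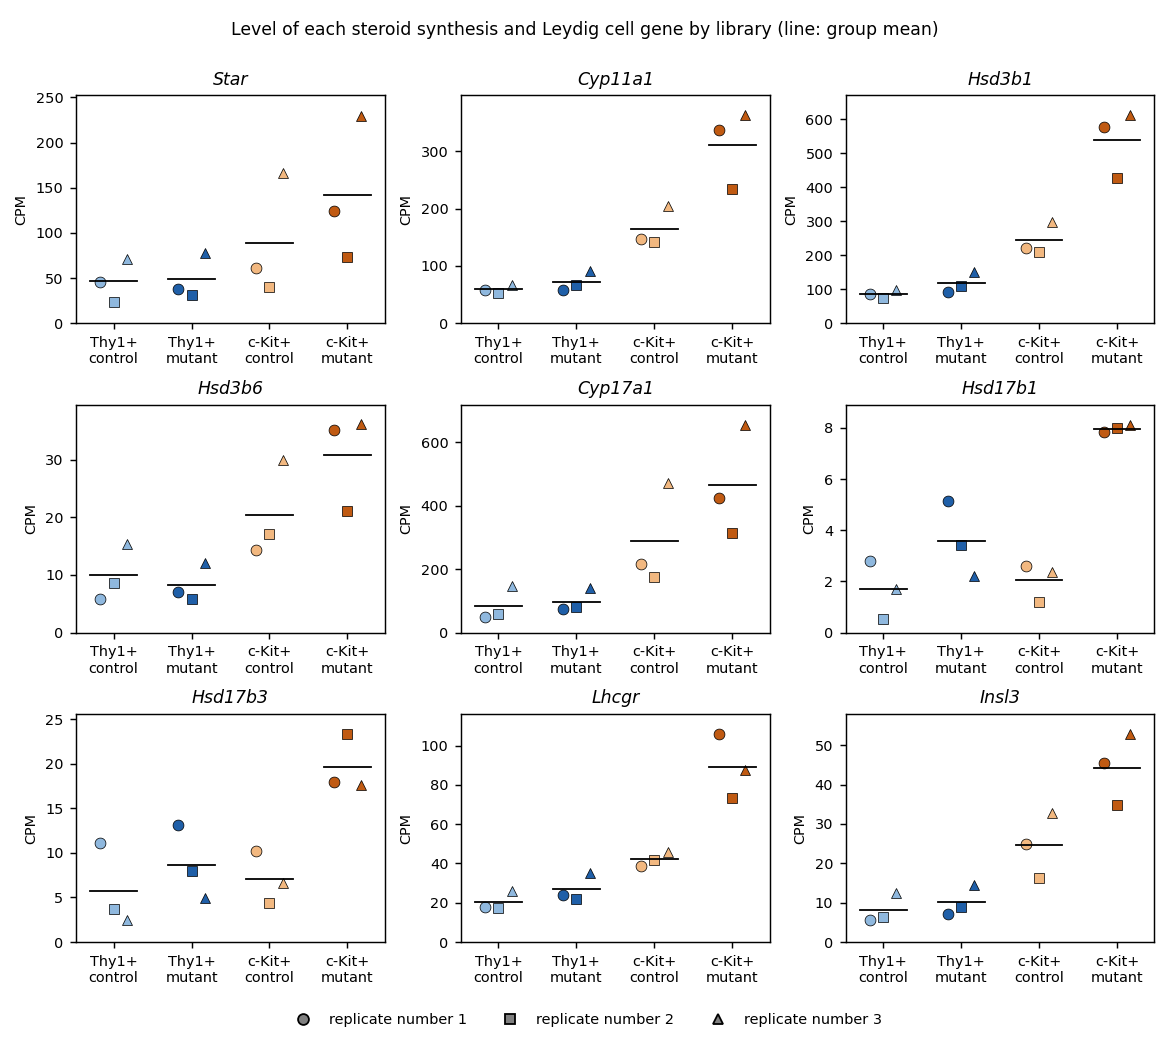
CPM (y axis, from 0) of the 9 tested genes in each of the 12 libraries (x axis: group; symbol: replicate number; line: mean of 3 libraries). In *Star*, *Cyp11a1*, *Hsd3b1*, *Hsd3b6*, *Cyp17a1* and *Insl3* the triangle of replicate 3 was the highest in all 4 groups, and *Hsd17b1* and *Hsd17b3* had another order.

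The last pair of enzymes differed most between genotypes and had the lowest levels. *Hsd17b1* had 2.59, 1.2 and 2.38 CPM in c-Kit+ controls (42 to 89 reads) and 7.82, 7.98 and 8.10 CPM in mutants (265 to 328 reads). Its mutant libraries were nearly equal to each other and far above every control (1.89 ± 0.25, FDR 0.000459). *Hsd17b3*, whose product makes testosterone, had 10.2, 4.43 and 6.62 CPM in controls and 17.9, 23.3 and 17.6 CPM in mutants (1.41 ± 0.25, FDR 0.00182). No mutant library overlapped a control in either gene.

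Markers of other cells moved in the same comparison, where 14.8% of all tested genes were called higher and 7.41% lower. Of 11 Sertoli markers, 10 were called higher and 0 lower in c-Kit+ mutants with a median log2 fold change of 1.16, and their summed level was 633 to 1693 CPM in control and 2652 to 2928 CPM in mutant libraries. *Amh*, the anti-Müllerian hormone of immature Sertoli cells, changed by 1.61 ± 0.36 (FDR 0.00558). Of the other marker lists, 6 of 7 stromal, 6 of 7 endothelial, 4 of 7 peritubular myoid, 1 of 7 macrophage and 3 of 4 tested mast cell markers were called higher and 0 lower. Of 7 germ cell markers 2 were called lower and 0 higher. The part of cell composition in the rise of the steroid genes was not tested. Adrenal-type enzymes stayed near 0: *Cyp21a1*, *Cyp11b1* and *Cyp11b2* together summed to at most 1.79 CPM in any library, and *Cyp11b2* was at 0 reads in 9 of 12 libraries.

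In Thy1+ cells 0 of the 9 tested genes were called higher and 0 lower in mutants, and 0% of the 17416 tested genes were called in either direction (edgeR quasi-likelihood test). An unadjusted p under 0.05 was reached by 2151 genes, of the 9 only by *Hsd3b1*, and edgeR's exact test called 20 genes higher and 274 lower and DESeq2 52 and 326, none of the 9 among them. Fold changes were smaller than in c-Kit+ cells for all 9 genes. *Cyp11a1* had 57.3, 52.1 and 67.6 CPM in Thy1+ controls and 58.3, 66.9 and 90.7 CPM in mutants (log2 fold change 0.29 ± 0.18, FDR 0.501). *Hsd3b1* had 87.2, 73.9 and 98.8 CPM against 90.8, 110 and 151 CPM (0.44 ± 0.19, FDR 0.404). The groups overlapped in every one of the 9 genes, and the share of all tested genes that overlapped was not counted. *Star* (0.08 ± 0.44), *Cyp17a1* (0.21 ± 0.42), *Insl3* (0.32 ± 0.36) and *Hsd3b6* (-0.26 ± 0.39) had SEs larger than their fold changes, and each of these 4 changed sign when some library was left out.

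With the replicate number as a block, *Hsd17b1* (1.21 ± 0.34, FDR 0.0142) and *Hsd17b3* (0.74 ± 0.18, FDR 0.00552) were called higher in Thy1+ mutants, where 3.2% of all genes were called higher. *Hsd17b3* had 11.1, 3.69 and 2.50 CPM in controls and 13.1, 7.94 and 4.89 CPM in mutants, so that each mutant library exceeded the control of its own number although the groups overlapped. *Hsd17b1* had 2.80, 0.542 and 1.72 CPM (125, 20 and 62 reads) against 5.13, 3.41 and 2.20 CPM (189, 149 and 68 reads), also higher in 3 of 3 pairs. Its log2 differences by number were 0.86, 2.54 and 0.35, the largest in the pair whose control had 20 reads. How many of all genes were higher in 3 of 3 Thy1+ pairs was not counted. In the blocked fit *Hsd3b1* (0.42 ± 0.08, FDR 0.00133), *Lhcgr* (0.41 ± 0.09, FDR 0.00227), *Cyp17a1* (0.32 ± 0.09, FDR 0.0143) and *Cyp11a1* (0.28 ± 0.08, FDR 0.0113) stayed under the minimum fold. *Star* was at 0.10 ± 0.10 (FDR 0.471) and *Hsd3b6* was at -0.22 ± 0.16 (FDR 0.337). The summed Sertoli markers were 504, 553 and 2432 CPM from the lowest to the highest Thy1+ control and 1032, 1075 and 3210 CPM in mutants.

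Whether the effect of genotype differed between the populations was tested by the interaction term over 18002 genes. Of the 9 genes 0 were called, and 0% of all genes were called in either direction (edgeR FDR, 1804 genes with an unadjusted p under 0.05, 44 called higher and 19 lower by DESeq2). All 9 had a larger fold change in c-Kit+ than in Thy1+ cells, by between 0.48 for *Cyp17a1* and 0.89 for *Hsd17b3* on the log2 scale, with a median of 0.67 against 0.08 for all tested genes. *Hsd3b1* (0.71 ± 0.28, FDR 0.443), *Lhcgr* (0.67 ± 0.29, FDR 0.473) and *Cyp11a1* (0.64 ± 0.28, FDR 0.486) were the 3 genes with an unadjusted p under 0.05. A difference between the populations in the effect of genotype was not shown for any single gene by this test.

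Among control mice, 5 of the 9 genes were higher in c-Kit+ than in Thy1+ cells and none was lower: *Cyp17a1* (3.33-fold), *Insl3* (2.96-fold), *Hsd3b1* (2.76-fold), *Cyp11a1* (2.74-fold) and *Lhcgr* (2.04-fold). Of all 17350 tested genes 7.08% were called higher and 20.7% lower (10.7% higher when libraries were scaled by their size only, where 6 of the 9 were called). The median of the 9 was 1.03 on the log2 scale against -0.03 for all genes. *Cyp17a1* had 48.2, 59.9 and 147 CPM in Thy1+ and 216, 176 and 471 CPM in c-Kit+ controls (1.74 ± 0.47, FDR 0.0207). Its groups did not overlap, but the call was lost without Thy1+ control replicate 2 (FDR 0.0563) or c-Kit+ control replicate 3 (FDR 0.0723). *Insl3* had 5.70, 6.43 and 12.5 CPM against 25.0, 16.2 and 32.8 CPM (1.56 ± 0.34, FDR 0.00853).

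*Hsd3b1* (1.46 ± 0.16, FDR 0.000201), *Cyp11a1* (1.45 ± 0.16, FDR 0.000214) and *Lhcgr* (1.03 ± 0.17, FDR 0.00249) were also separated between the control populations without overlap. *Hsd3b6* had 5.82, 8.57 and 15.4 CPM in Thy1+ and 14.4, 17.1 and 29.9 CPM in c-Kit+ controls, an overlap of a single pair of libraries (1.02 ± 0.37, FDR 0.0599). *Star* had 0.90 ± 0.53 (FDR 0.212). The block by replicate number called both *Star* (0.79 ± 0.14, FDR 0.00173) and *Hsd3b6* (1.06 ± 0.13, FDR 0.000246), 7 of 9 genes in all, against 8.38% of all genes called higher in that fit. *Hsd17b1* (0.25 ± 0.54, FDR 0.753) and *Hsd17b3* (0.26 ± 0.53, FDR 0.733) were not called in either fit, although *Hsd17b3* was called without Thy1+ control replicate 1 (1.2). Of the 11 Sertoli markers 0 were called in this comparison, and stromal, macrophage, peritubular myoid and endothelial markers were lower in c-Kit+ cells in 7 of 7, 7 of 7, 6 of 7 and 4 of 7 cases. Mast cell markers, a further cell type with the c-Kit receptor, were higher in 4 of 4 tested, with *Cpa3* at 2.96 ± 0.60 (FDR 0.00628).

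Among mutants all 9 tested genes were higher in c-Kit+ than in Thy1+ cells, where 5.03% of the 17346 tested genes were called higher and 15.3% lower (8.01% higher with scaling by library size only, where all 9 were called). Fold changes were largest for *Cyp17a1* (4.61-fold, FDR 0.00128), *Hsd3b1* (4.47-fold, FDR 0.000132), *Insl3* (4.24-fold, FDR 0.000613) and *Cyp11a1* (4.21-fold, FDR 0.000172). *Hsd3b6* (3.63-fold, FDR 0.00243) and *Lhcgr* (3.22-fold, FDR 0.000428) followed. *Star* had 38.4, 31.1 and 77.9 CPM in Thy1+ and 124, 73.6 and 230 CPM in c-Kit+ mutants, with an overlap (2.83-fold, FDR 0.0358). *Hsd17b3* (2.20-fold, FDR 0.0264) and *Hsd17b1* (2.15-fold, FDR 0.0199) did not overlap. The calls of *Star*, *Hsd17b1* and *Hsd17b3* did not hold when some libraries were left out: *Star* was lost without Thy1+ mutant replicate 1 or 2 or c-Kit+ mutant replicate 1 or 3 (FDR up to 0.114), and the other two without any of the 3 c-Kit+ mutant libraries (FDR up to 0.0954). With all 12 libraries in 1 fit the FDR of the 3 genes was 0.0583, 0.0671 and 0.0808. This comparison and the 3 before it share libraries, so their results are not independent of each other.

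The genes fell into 2 sets by how they varied among libraries of the same group, a division made after their values were seen. In 6 of the 10 genes (*Star*, *Cyp11a1*, *Hsd3b1*, *Hsd3b6*, *Cyp17a1* and *Insl3*) the library of replicate 3 was the highest in all 4 groups, and *Lhcgr* was highest there in 3 of 4. Of all 18002 genes that passed the filter over 12 libraries, 3.69% had that pattern. After the group means were subtracted, log2 CPM of these 7 genes correlated with Pearson's r between 0.68 (*Star* and *Lhcgr*) and 0.99 (*Cyp11a1* and *Hsd3b1*) over 12 libraries. The summed counts of the 10 genes took 0.132% of the reads of c-Kit+ control replicate 3, against 0.0759% and 0.0668% of replicates 1 and 2.

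*Hsd17b3* and *Hsd17b1* varied together (r = 0.69) and apart from the other 7, with r between -0.70 and -0.19 for *Hsd17b3* and between -0.19 and 0.34 for *Hsd17b1*. *Hsd17b3* instead varied with Sertoli markers: r was 0.95 with *Amh*, 0.91 with the Sertoli transcription factor *Sox9*, 0.89 with *Dhh* and 0.85 with the follicle-stimulating hormone receptor *Fshr*. It also varied with the myoid marker *Acta2* (r = 0.81) and against *Kit* (r = -0.61). For *Hsd17b1* the values with the 4 Sertoli markers were 0.79, 0.77, 0.80 and 0.68. With the same 4 markers the 7 other genes had r between -0.50 and 0.24. *Hsd17b1* also had r of 0.805 with *Nr5a1*, which Leydig and Sertoli cells share, and 0.67 with *Acta2*. Its r was -0.71 with *Kit* and -0.64 with the germ cell marker *Dazl*. Genes of 1 library share its depth and its cells, and these correlations are a description without a test.

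**Figure D3:**
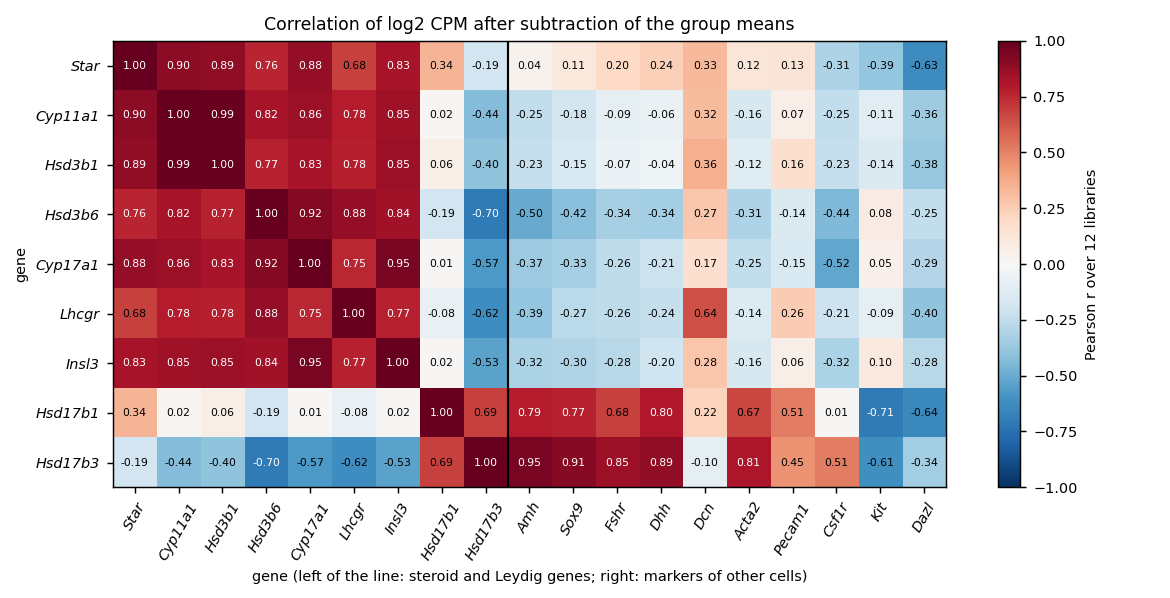
Pearson's r of log2 CPM over 12 libraries after subtraction of the 4 group means, for the 9 tested genes (rows) against each other and against markers of Sertoli (*Amh*, *Sox9*, *Fshr*, *Dhh*), stromal (*Dcn*), myoid (*Acta2*), endothelial (*Pecam1*), macrophage (*Csf1r*) and germ cells (*Dazl*), and *Kit* (columns). The 7 genes from *Star* to *Insl3* form 1 block with r of at least 0.68, and *Hsd17b1* and *Hsd17b3* have their highest r with the Sertoli markers.

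Ratios of 2 genes within a library are free of its depth. *Hsd3b1* to *Cyp11a1* was 1.52, 1.42 and 1.46 in Thy1+ controls and 1.51, 1.48 and 1.46 in c-Kit+ controls. The mutant values were 1.56, 1.64 and 1.66 for Thy1+ cells and 1.71, 1.82 and 1.68 for c-Kit+ cells. All 6 mutant libraries were above all 6 controls. This ratio was picked after its values were seen and is given as a description. *Star* to *Cyp11a1* varied widely, from 0.280 to 0.815 in c-Kit+ controls and from 0.315 to 0.633 in c-Kit+ mutants. It was lowest in replicate 2 and highest in replicate 3 in all 4 groups. *Hsd17b3* to *Amh* lay between 0.0837 and 0.251 in all 12 libraries, while *Amh* itself ran from 17.6 to 156 CPM. *Insl3* to *Cyp11a1* had a mean of 0.136 to 0.148 in the 4 groups.

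**Figure D4:**
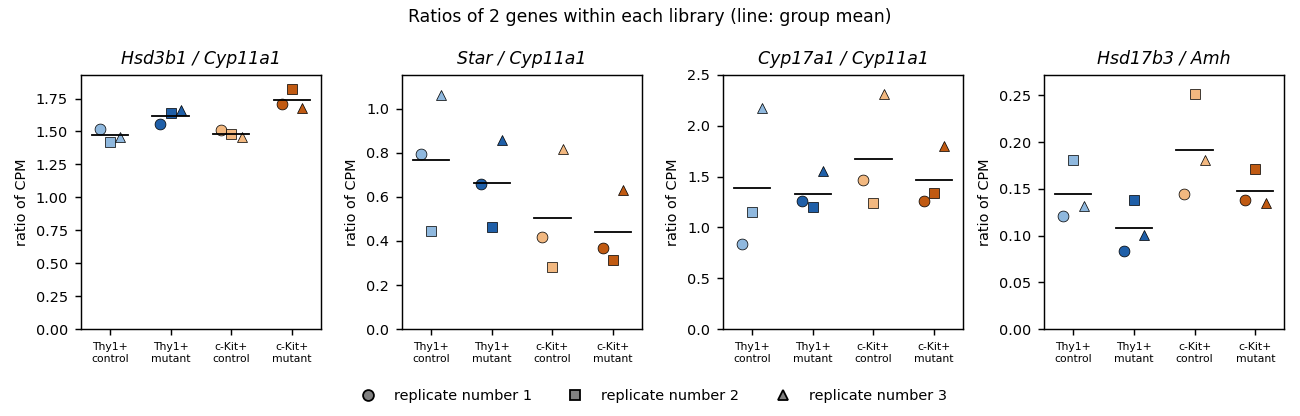
Ratio of the CPM of 2 genes (y axis, from 0) within each of the 12 libraries (x axis: group; symbol: replicate number; line: mean of 3 libraries). *Hsd3b1* to *Cyp11a1* stayed between 1.42 and 1.52 in controls and between 1.56 and 1.82 in mutants, and *Star* to *Cyp11a1* was highest in replicate 3 of each group.

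Of the genes outside the set, those most like the mean standardized level of the 9 over the 12 libraries were *Tle2* (r = 0.996), a co-repressor, *Adh1* (0.989), an alcohol dehydrogenase, *Cst8* (0.988), *AU021092* (0.988) and *Itih2* (0.979), among 13667 genes of at least 1 on the log2 CPM scale. After subtraction of the group means they were *Chst3* (0.982), *Cebpa* (0.978), *Ccnd3* (0.975), *Hvcn1* (0.972) and *Tmem159* (0.971), and none of the first 5 was among them. Over the 12 libraries, without that subtraction, *Star* alone was closest to *Alas1* (0.983), which encodes the first enzyme of haem synthesis, and to *Fdx1* (0.978), genes picked after their values were seen.

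The neighbouring steps were read from lists of genes, whose counts are to be read beside the shares of all tested genes. In c-Kit+ mutants against controls 14.8% of all tested genes were called higher and 7.41% lower. Between the control populations 7.08% were higher in c-Kit+ cells and 20.7% lower, and between the mutant populations 5.03% and 15.3%. Of 21 genes of cholesterol supply and synthesis, 1 was called higher and 0 lower in c-Kit+ mutants, with a median log2 fold change of 0.02. That gene was *Scarb1*, the receptor for high-density lipoprotein (0.58 ± 0.18, FDR 0.0304). It was also higher in c-Kit+ than in Thy1+ cells of controls (0.75 ± 0.20, FDR 0.0210) and of mutants (1.13 ± 0.18, FDR 0.00214). Of the same 21 genes 2 were called higher in c-Kit+ than Thy1+ controls, the other being the sterol enzyme *Lss* (0.58 ± 0.13, FDR 0.00824). Among mutants there were 6, with *Soat1*, which stores cholesterol as esters, at 0.67 ± 0.17 (FDR 0.0224) and *Dhcr7* at 0.66 ± 0.10 (FDR 0.00162). In Thy1+ cells 0 were called between genotypes.

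Of 5 electron carriers, 2 were called higher in c-Kit+ mutants: *Fdxr*, which passes electrons to mitochondrial P450 enzymes such as CYP11A1 (0.80 ± 0.11, FDR 0.000533), and *Cyb5a*, which aids CYP17A1 (0.95 ± 0.12, FDR 0.000372). *Fdx1*, the partner that CYP11A1 receives electrons from, had 0.38 ± 0.34 (FDR 0.417), and *Por*, the donor of CYP17A1, -0.14 ± 0.13 (FDR 0.416). *Cyb5a* was lower in c-Kit+ than in Thy1+ controls (-0.79 ± 0.19, FDR 0.0126), opposite to *Cyp17a1*. *Fdx1* was higher in c-Kit+ than in Thy1+ mutants (1.01 ± 0.29, FDR 0.0333).

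Of 15 other steroid-metabolizing enzymes 11 were tested in c-Kit+ cells, of which 4 were called higher in mutants and 0 lower (median 0.69). They were *Akr1c14* (1.08 ± 0.21, FDR 0.00317), *Hsd11b2* (0.87 ± 0.23, FDR 0.0121), *Hsd3b7* (0.69 ± 0.15, FDR 0.00520) and *Srd5a1*, the 5α-reductase of immature Leydig cells (0.52 ± 0.13, FDR 0.00968). Between the control populations only *Srd5a1* of this list was higher in c-Kit+ cells (1.07 ± 0.18, FDR 0.00237), and 4 were lower: *Hsd3b7* (-1.39 ± 0.17, FDR 0.000407), *Hsd11b1* (-1.26 ± 0.42, FDR 0.0449), *Akr1c14* (-1.23 ± 0.20, FDR 0.00192) and *Hsd11b2* (-0.99 ± 0.24, FDR 0.0131). *Srd5a1* was thus the enzyme of this list that was called higher, like *Cyp11a1*, in both comparisons. *Akr1c14*, *Hsd11b2* and *Hsd3b7* rose in c-Kit+ mutants while being higher in Thy1+ than in c-Kit+ controls. Between the mutant populations *Srd5a1* (1.56) and *Srd5a2* (2.09) were called higher and *Hsd3b7* (-0.84) lower. In Thy1+ cells 0 of the 10 tested were called between genotypes.

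Of 22 transcription factors and signals of Leydig cells, 21 were tested in c-Kit+ cells, of which 16 were called higher and 1 lower in mutants (median 0.81). *Nr5a1*, the steroidogenic factor shared by Leydig and Sertoli cells, had 101, 72.2 and 101 CPM in c-Kit+ controls and 216, 179 and 217 CPM in mutants (1.10 ± 0.13, FDR 0.000285). *Gata6* (1.39 ± 0.26, FDR 0.00226), *Inha* (1.24 ± 0.24, FDR 0.00263) and *Gata4* (1.07 ± 0.14, FDR 0.000469), all expressed also in Sertoli cells, were among them. The gene that fell was *Pde8a*, a phosphodiesterase that breaks down cAMP (-0.73 ± 0.15, FDR 0.00339), whereas *Pde8b* rose (0.67 ± 0.11, FDR 0.00126).

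Between the control populations the same list went the other way from the steroid enzymes: 0 of 21 were called higher in c-Kit+ cells and 11 lower, with a median of -1.09. *Igf1* (-3.53 ± 0.20, FDR 1.67e-05), *Pdgfra* (-2.72 ± 0.18, FDR 2.15e-05) and *Lhx9* (-2.72 ± 0.20, FDR 2.86e-05), which stromal and progenitor cells of the interstitium also express, had the largest differences. *Nr5a1* did not differ beyond its error (-0.10 ± 0.23, FDR 0.755), although *Cyp11a1*, *Hsd3b1*, *Cyp17a1*, *Lhcgr* and *Insl3* were all higher there. Among mutants 1 was higher (*Pde8b*, 1.02 ± 0.20, FDR 0.00595) and 11 were lower. In Thy1+ cells 0 of the 22 were called between genotypes, with a median of 0.40.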

How the data were processed

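RNA was sequenced from 12 libraries of magnetically sorted Thy1+ and c-Kit+ mouse spermatogonia at 10 dpp, 3 per genotype and population, with 32266861 to 45396233 counted reads each. The deposited values were raw read counts per RefSeq gene in mm10, which the authors made with Trimmomatic 0.39, HISAT2 2.1.0 and featureCounts (2.0.3 in the file header), with no strand setting and with mates of a pair counted singly, so that the counts hold dependent reads and sense and antisense reads cannot be told apart. Reads assigned to several genes or places were not counted. Peak and signal files of the series were not used.

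Counts were tested with edgeR 4.0.16 (R 4.3.3, limma 3.58.1) by the quasi-likelihood test after filterByExpr and TMM scaling, for each pair of groups and for the interaction, with Benjamini-Hochberg FDR over all genes tested. Calls needed an FDR below 0.05 together with a log2 fold change of more than 0.5 in either direction, and the SE was the log2 fold change over the root of its F. CPM used TMM factors over 12 libraries, correlations log2 CPM with a prior count of 2, and RPKM exon length. Scripts were tested on simulated data. Python 3.11.15, numpy 2.4.6, pandas 2.3.3 and matplotlib 3.10.9 made tables and figures, and DESeq2 1.42.0 and edgeR's exact test were alternatives.

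Replicate numbers come from the labels. Deviations from the group means of libraries with the same number had r of 0.10 to 0.13 between c-Kit+ genotypes, 0.27 to 0.49 between Thy1+ genotypes and 0.13 to 0.30 between control populations. All were over the limit of 0.1, and in these comparisons the fit with the block was read as a paired alternative. The main calls came from the unpaired fit in every comparison. Between mutant populations 1 of 3 pairs and for the interaction 10 of 18 passed, and these were not taken as paired. With all 12 libraries filtered and scaled together, as for the interaction, the pairs of c-Kit+ genotypes had r of 0.083, 0.093 and 0.107.

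The genes, the lists and the tests were chosen with earlier results of these data known. Named besides the 10 were genes that overlap them, the other *Hsd3b* genes, the 3 largest called and the opening genes of each list, the 5 genes most like their mean, and *Kit*, *Thy1* and *Chd8*. Other genes named from the lists, where few were called or as partners of an enzyme, were chosen after their values were seen.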

Additional observations from a re-analysis of the deposited data

How the results depend on the processing

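No test called any of the 10 genes lower, in any comparison or alternative. With each library left out in turn, the number called higher was 5 to 9 in c-Kit+ mutants against controls, 0 to 0 in Thy1+ cells, 4 to 6 between control populations, 6 to 9 between mutant populations and 0 to 0 for the interaction. In the same fits and order, 2087 to 2735, 0, 625 to 2002, 338 to 1788 and 0 of all tested genes were called higher. The replicate block raised the number of the 9 genes called higher to 2 in Thy1+ cells, and to 2 for the interaction (*Cyp11a1* 0.65, FDR 0.0473, and *Hsd3b1* 0.73, FDR 0.0364, edgeR), where the pairing was not borne out. Of all genes it called 558 of 17416 and 403 of 18002 higher. Between mutant populations the block called the same number, 9, and 1186 of all 17346 tested genes.

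Of the log2 fold changes of the 9 tested genes that were not called, 9 changed sign when some library was left out, and the others kept theirs. In Thy1+ cells *Star* ran from -0.43 to 0.52, *Cyp17a1* from -0.15 to 0.86, *Hsd3b6* from -0.63 to 0.20 and *Insl3* from -0.023 to 0.75. Between control populations *Hsd17b1* ran from -0.12 to 0.86 and *Hsd17b3* from -0.067 to 1.2, and *Hsd17b3* was at -0.016 without replicate number 3 in any group. For the interaction *Star* ran from -0.011 to 1.42, *Cyp17a1* from -0.17 to 1.04 and *Hsd17b3* from -0.015 to 1.32. The cause was not tested.

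Over all genes, counts of calls moved by more than 1.5 times in some settings. Without replicate number 3 in any group, chosen after seeing the data, 1674 genes were higher in c-Kit+ mutants in place of 2542, 138 and 110 in c-Kit+ control and mutant cells in place of 1229 and 872, and 1285 and 2036 lower in place of 2653 and 3594 between mutant and control populations. In Thy1+ cells 14 were higher and 236 lower with all 12 libraries in 1 fit and 558 and 856 with the block, in place of 0 and 0. The interaction with the block gave 403 and 21. With no minimum fold, 3571 and 3139 were called in c-Kit+ cells, 2357 higher between control populations and 1534 between mutant populations. With a library left out, 625 to 2002 genes were higher between control populations and 338 to 1788 between mutant populations. Scaling by library size called 1851 and 1390 higher between populations in place of 1229 and 872. *Cyp19a1*, with 0 to 12 reads, passed the filter only in some alternatives and was called in none.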
